A study of Arabidopsis thaliana with 13 samples.

Results

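The regions described here are stretches of the Arabidopsis thaliana genome at which peaks of the transcription factors PIF4 and PIF5 were found without a peak of the photoreceptor CRY2. They were chosen by merging the peaks of 3 deposited lists wherever peaks overlapped by 1 bp or more and keeping regions with a PIF4 and a PIF5 peak and no CRY2 peak. The rule gave 1302 of 12738 merged regions, or 10.2%. Because the peaks chose the members, the strengths of those peaks are given as a description and without a test.

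PIF4 and PIF5 (PHYTOCHROME INTERACTING FACTORs) are basic helix-loop-helix proteins that bind DNA and promote the elongation of stems and leaf stalks in shade and warmth, in large part through auxin genes. CRY2 is a blue-light receptor that is found on chromatin together with DNA-binding partners, among them the bHLH protein CIB1 and PIFs. The study mapped all 3 proteins in weak blue light, so their binding regions can be compared.

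The lines were Columbia seedlings with a tagged protein: 3xFlag-6xHis-CRY2 behind the UBQ10 promoter, PIF4-3xFlag-6xHis, or PIF5-Flash(9xMyc-6xHis-3xFlag). The promoters of the PIF transgenes are not given in the sources used here. All seedlings were 5 days old, had grown in continuous white light at first, and were then kept for 16 h in low blue light, so no other light condition is compared. FLAG precipitations numbered 2 for CRY2, 3 for PIF4 and 2 for PIF5, each with 2 IgG controls from the same line, which makes 13 libraries. The CRY2 precipitation started from 18 g of tissue and used a second cross-linker, whereas 2 g and no such linker served for each PIF. The absence of a CRY2 peak thus cannot be told apart from a difference between these protocols. Each list pools the replicates of its protein, which leaves no replicate error to give, and library depth is unknown. All strengths are the authors' fold enrichment of the FLAG over the control precipitation for the strongest peak of a protein in a region. The lowest CRY2 fold in its list was 1.51, but whether every site above that value was listed is unknown. Occupancy too weak to be called a peak would not have been listed. No sequences are shown because no genome sequence was used here.

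In these regions PIF4 peaks were strong for their list and PIF5 peaks of middling strength, as was also true where CRY2 was present. The PIF4 fold enrichment ranged from 1.81 to 5.32 with a median of 3.23 (quartiles 2.74 and 3.82), against a median of 2.46 over all 9925 PIF4 peaks. The PIF5 fold enrichment ranged from 1.89 to 7.21 with a median of 2.36 (quartiles 2.14 and 2.71), against 2.40 over all 3767 PIF5 peaks. The median PIF5 fold of the 2123 regions that also held CRY2 was 2.49. In percentiles of the lists, the medians for PIF4 and PIF5 were 81.2 and 46.0 without CRY2 and 79.7 and 57.0 with it. Of the regions, 87.8% lay in the upper 50% of the PIF4 list and 45.0% in the upper 50% of the PIF5 list. In the upper 50% of the PIF4 list and the lower 50% of the PIF5 list were 576 regions (44.2%), and 19 (1.46%) were the other way round. The PIF4 list is the longer (9925 against 3767 peaks), so a percentile does not mean the same in each list. This split is a description, and the part of list length in it was not tested. Both peaks were in the upper 50% of their list in 567 regions (43.5%) and both in the lower 50% in 140 (10.8%). Across the 1302 regions Spearman's rho between the PIF4 and PIF5 fold was 0.60, and across the 2123 regions that also held CRY2 it was 0.62. These correlations are across regions of the same pooled libraries and have no test.

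**Figure D1:**
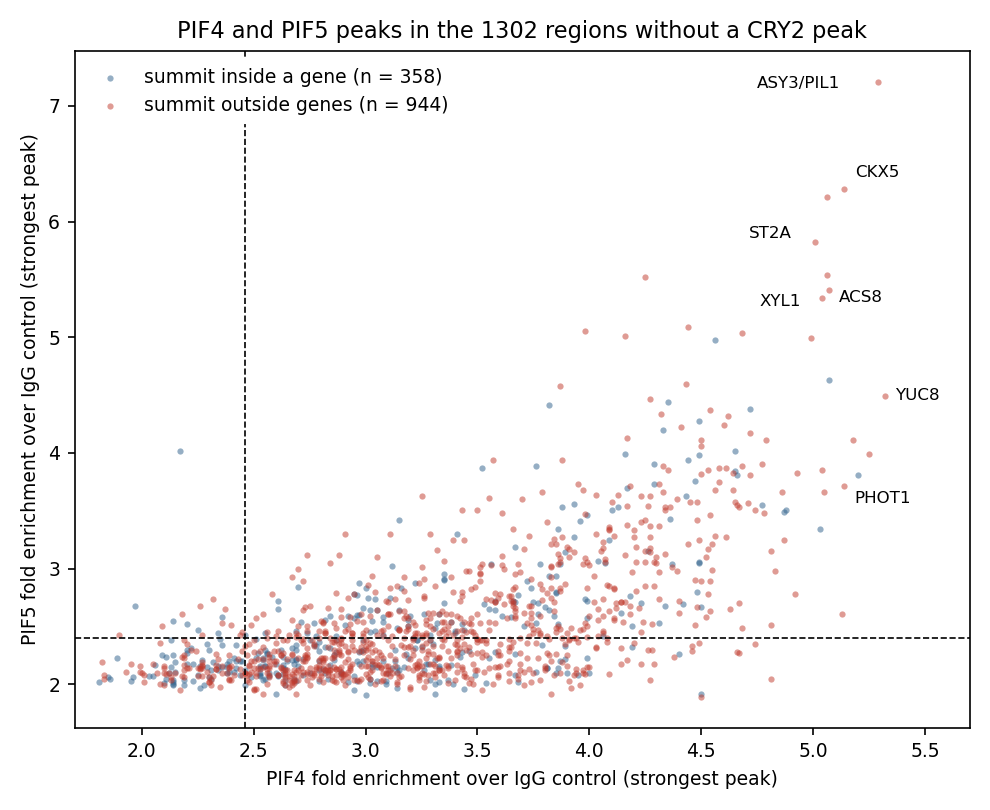
Fold enrichment over the IgG control of the strongest PIF4 peak (horizontal axis) and the strongest PIF5 peak (vertical axis) in each of the 1302 regions, with summits inside genes in blue and outside genes in red. Dashed lines mark the medians of the whole lists (2.46 and 2.40), and the named points, such as the region near ASY3 and PIL1 (5.29 and 7.21), are among the 20 strongest.

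The 20 strongest regions, by the mean rank of both folds, included hormone genes of cytokinin, ethylene, auxin and jasmonate metabolism. Their PIF4 fold ran from 4.56 to 5.32 and their PIF5 fold from 3.71 to 7.21, and their summits lay 1 to 44 bp apart. The first was a region on chromosome 2 from 19297645 to 19299913 with 5.29 for PIF4 and 7.21 for PIF5, the highest value of the PIF5 list. Its nearest gene was ASY3, a protein of the meiotic chromosome axis, 438 bp from the summit. PIL1, a bHLH gene that shade induces, lay 1196 bp from the same summit. The nearest CRY2 peak was 10694 bp away.

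Among the next 6 ranks were 4 hormone enzymes. CKX5 (AT1G75450), a cytokinin oxidase, had 5.14 for PIF4 and 6.28 for PIF5 in a region of 3325 bp on chromosome 1 that began at 28317891. ACS8 (AT4G37770), a synthase of the ethylene precursor, had 5.07 and 5.41 with summits 1 bp apart and 933 bp from the gene. YUC8 (AT4G28720), a flavin monooxygenase of auxin synthesis, had the highest PIF4 fold of all members, 5.32, and 4.49 for PIF5, at chromosome 4 from 14191747 to 14192759. That region is a close case, since a CRY2 peak of 2.13 lay 115 bp from its edge. ST2A (AT5G07010), a sulfotransferase of jasmonate metabolism, had 5.01 and 5.82.

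The other named genes among the 20 strongest were more varied. XYL1, an alpha-xylosidase that trims xyloglucan of the cell wall, was the nearest gene to a region with 5.04 for PIF4 and 5.34 for PIF5, but at 2980 bp. BGAL5, a beta-galactosidase, was 2594 bp from a region with 5.25 and 3.99. nMAT1, a maturase of mitochondrial introns, was 2400 bp from one with 5.18 and 4.11. PHOT1, the phototropin that directs growth towards blue light, was 1514 bp from a region with 5.14 and 3.71, and a CRY2 peak of 2.30 was assigned to PHOT1 elsewhere.

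At SQE3, a squalene epoxidase of sterol synthesis, the folds were 4.72 for PIF4 and 4.17 for PIF5. PLDP1, a phospholipase D, held its summit inside the gene, with 4.72 and 4.38. The remaining 9 regions were nearest to genes that the gene table lists without a name, the strongest being AT5G02580 (5.06 and 6.21), AT5G41908 (5.06 and 5.54) and AT5G14690 (5.07 and 4.63). Of the 20 summits, 4 lay inside a protein-coding gene, 8 outside but within 1 kb and 8 at 1 to 3 kb. A CRY2 peak lay within 1 kb of the region edge in 2 of the 20.

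A few regions had very unequal peaks, chosen here after their values were seen. At AT2G32430 a PIF4 peak of 4.50 stood with a PIF5 peak of 1.89, the weakest PIF5 peak of all members. SAUR14 (AT4G38840) had 3.92 for PIF4 and 1.97 for PIF5, with the summits 1 bp apart. In the other direction BT2, which encodes a protein with BTB and TAZ domains, had 2.17 for PIF4 and 4.02 for PIF5, and its summit lay inside the gene. A CRY2 peak of 2.99 lay 312 bp from that region.

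PIF4 and PIF5 summits nearly coincided. The median distance between them was 26.5 bp (quartiles 12 and 51 bp), and 1188 of 1302 regions (91.2%, 95% Wilson interval 89.6 to 92.7, for counting error only) had summits within 100 bp. In regions with CRY2 as well the median was 32 bp and the share 83.0% (81.3 to 84.5). Regions with a single PIF4 and a single PIF5 peak made up 1270 of the 1302, and in these the share within 100 bp was 91.9%, against 84.8% of 1898 such regions with CRY2. The PIF4 and the PIF5 peak of such a member must overlap, whereas a CRY2 peak can join PIF peaks that do not overlap. The rule thus bears on these distances, and its part in the difference was not tested. The PIF peaks together spanned a median of 1067.5 bp without CRY2 (quartiles 785.5 and 1503 bp) and 1358 bp with CRY2 (959 and 2087.5 bp). Where a CRY2 peak joins separate PIF peaks, the space between them is counted in the span. The part of this span in the summit distances was not tested. No test is given for these differences, since regions of pooled lists are not replicates.

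**Figure D2:**
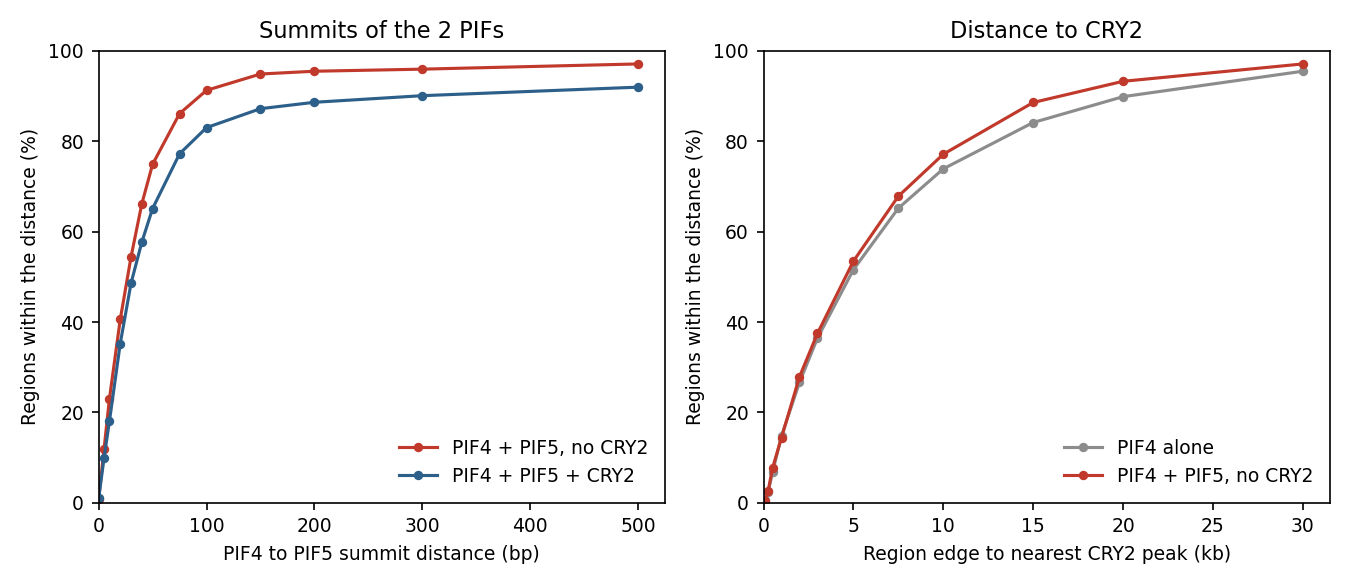
Cumulative share of regions (vertical axes) by the distance between PIF4 and PIF5 summits in bp (left) and by the distance from the region edge to the nearest CRY2 peak in kb (right). The red line of the 1302 regions lies above the blue line of regions with CRY2 on the left (91.2% against 83.0% within 100 bp) and near the grey line of PIF4 regions without either partner on the right (14.4% against 14.8% within 1 kb). The rule bears on the left panel, since a CRY2 peak can join PIF peaks that do not overlap.

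The nearest CRY2 peak lay a median of 4431.5 bp from the edge of a region (quartiles 1729.75 and 9390.75 bp). Within 1 kb there was a CRY2 peak at 188 regions (14.4%, interval 12.6 to 16.5), and within 500 bp at 100 (7.68%). The 4548 regions of PIF4 alone had one within 1 kb in 14.8% of cases (13.8 to 15.9) and a median distance of 4773.5 bp. Few members were decided by a small gap: 6 had a CRY2 peak within 100 bp.

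The values nearest to the limit of the rule show what a small shift could change. Among the members closest to a CRY2 peak, HAT22, a homeodomain-leucine zipper gene, was 1069 bp from the summit of a region with 4.09 for PIF4 and 3.34 for PIF5 whose edge lay 47 bp from a CRY2 peak of 2.11. AT1G64385 had 2.99 and 2.44 with a CRY2 peak 49 bp away, and AT2G05920 had 3.00 and 1.91 with one 54 bp away. Among the regions left out, the one at AT5G57010 had the least overlap: its CRY2 peak overlapped a PIF peak by 12 bp, with 3.36 for PIF4 and 2.69 for PIF5. The overlap was 71 bp at AT1G78860 (2.98 and 2.16) and 89 bp at AT2G32020 (2.35 and 2.1). In regions of all 3 proteins the median overlap was 706 bp.

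Of 3425 regions with both PIFs, 38.0% lacked CRY2. In 10 equal groups by PIF4 fold the share ran between 34.1% and 44.7% with no steady order, and the strongest group (fold 4.24 to 5.50) had the highest, 44.7% (interval 39.6 to 50.04). In groups by PIF5 fold it went from 45.2% (40.005 to 50.5) in the weakest to 30.4% (25.8 to 35.5) in the strongest. In groups by the span of the PIF peaks it went from 60.3% (55.1 to 65.4) at 376 to 695 bp to 12.9% (9.73 to 16.8) at 2726 to 8199 bp. The rule uses the span, since a wider region has more bases at which a CRY2 peak can overlap it. A CRY2 peak can also join separate PIF peaks and so lengthen the span. This fall is therefore a description and not a finding. The part of width in the other differences between regions with and without CRY2 was not tested.

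Within 4 equal groups by that span, the share without CRY2 was 51.6% and 54.1% for the lower and upper 50% of PIF4 folds in the narrowest group. It was 35.3% and 46.9% in the next group, 33.6% and 40.4% in the one after, and 20.6% and 22.1% in the widest. The share was higher for the stronger PIF4 peaks in each of the 4 groups, as a description of these lists. The intervals were apart only in the group next to the narrowest (31.1 to 39.8 against 42.0 to 51.8) and overlapped in the others. The share differed moderately between chromosomes, from 34.7% of the regions of both PIFs on chromosome 1 to 41.1% on chromosome 4, and the members numbered 320, 205, 260, 223 and 294 on chromosomes 1 to 5.

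**Figure D3:**
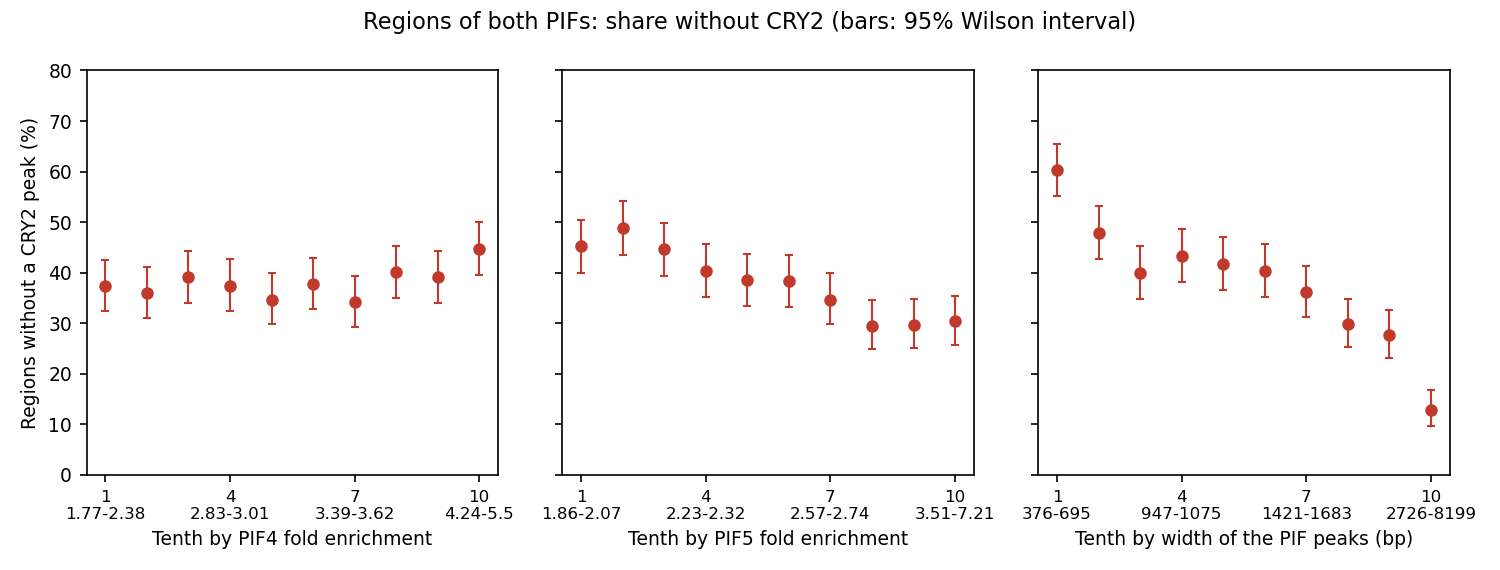
Share of the 3425 regions with both PIFs that lacked a CRY2 peak (vertical axis, percent) in 10 equal groups by PIF4 fold, PIF5 fold and the span of the PIF peaks in bp, with the range of values under the numbers of 4 groups and 95% Wilson intervals as bars. The share stays between 34.1% and 44.7% by PIF4 fold and falls from 60.3% to 12.9% with the span.

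The PIF summits lay mostly outside genes. Of PIF4 summits, 358 of 1302 (27.5%, interval 25.1 to 29.985) lay inside a protein-coding gene, 661 (50.8%) outside but within 1 kb of one, 237 (18.2%) at 1 to 3 kb and 46 (3.53%) farther away. Of all bases up to the last gene of each chromosome, 54.1% lie inside genes, 20.4% within 1 kb and 11.1% at 1 to 3 kb. Regions with CRY2 as well had 33.9% of summits inside genes (31.9 to 35.9), 53.2% within 1 kb and 11.4% (10.2 to 12.9) at 1 to 3 kb. Regions of PIF4 alone had 30.7%, 47.0% and 18.2%. No test is given for these shares. Within the 4 groups by the span of the PIF peaks, 52.7% of regions of both PIFs inside genes and 52.6% outside lacked CRY2 in the narrowest group. The shares inside and outside were 35.3% and 42.9% in the next group, 28.6% and 41.2% in the one after, and 15.9% and 24.1% in the widest.

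**Figure D4:**
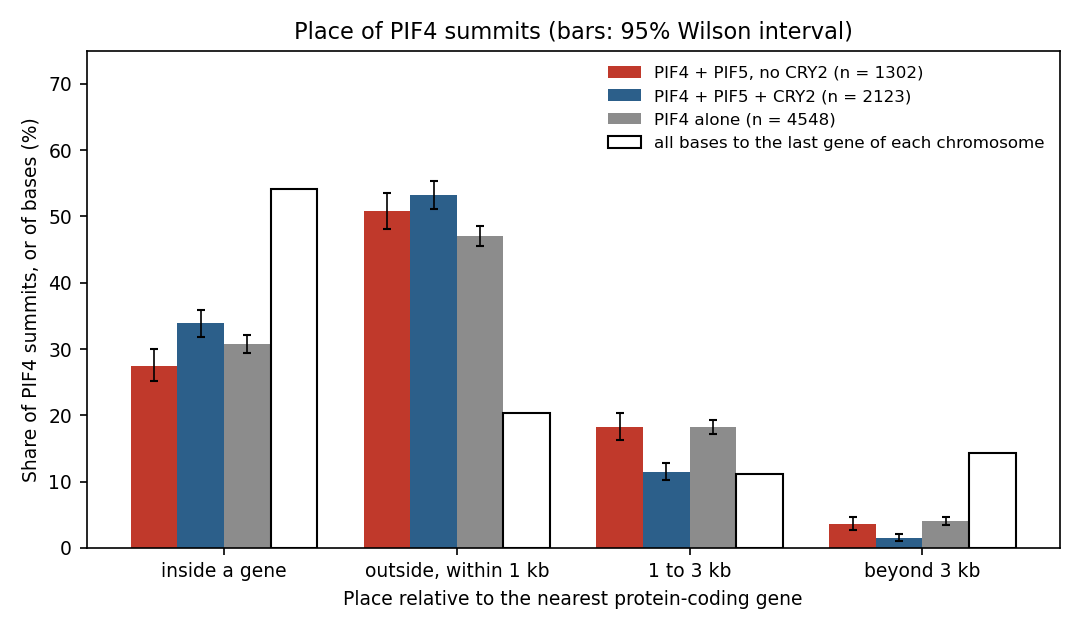
Share of PIF4 summits (percent) inside protein-coding genes, outside within 1 kb, at 1 to 3 kb and farther away, for the 1302 regions (red), regions of all 3 proteins (blue) and regions of PIF4 alone (grey), with 95% Wilson intervals, and the share of all bases in white. At 1 to 3 kb the red bar stands at 18.2% and the blue bar at 11.4%.

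The 944 summits outside genes lay in gaps between genes with a median length of 2766 bp (95% interval of the median 2582 to 3073), against 2152.5 bp (1997 to 2344) for 1404 summits of regions with CRY2 and 2958 bp for 3150 summits of PIF4 alone. The gaps between neighbouring protein-coding genes had a median of 877 bp, but a long gap offers more bases, and the median base outside genes lies in a gap of 5770 bp. Gaps over 5 kb held 26.7% of these summits, 18.3% of those with CRY2 and 54.1% of the bases outside genes. The summits were a median of 491 bp from the nearest gene edge, against 286 bp with CRY2. Both neighbouring genes were within 1 kb of 24.9% (22.2 to 27.8) of the summits, and of 33.3% (30.9 to 35.8) with CRY2. Inside genes, 78.2% of summits were within 500 bp of a gene edge and the median distance to the edge was 152.5 bp, almost the same as the 152 bp with CRY2. The gene table gives no strand, so an edge is a start or an end of a gene.

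Most genes had a single region, 45 of 1209 having more. Of the regions, 422 (32.4%) had another member within 10 kb, in 191 groups, of which 6 held at least 4. No such share is given for other regions or for an even spread, so whether the members cluster was not tested. The longest group had 7 regions on chromosome 2 between 8214628 and 8236390, nearest to HPT1, an enzyme of vitamin E synthesis (4934 bp away), HA1, a plasma membrane proton pump, and 2 unnamed genes. At HA1 the PIF4 folds were 2.73 and 2.45 and the PIF5 folds 2.67 and 2.20, while AT2G18970 had 4.81 and 2.51.

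A dense group lay around ATHB2 (AT4G16780, listed as HB-2), a homeobox gene of the shade response. It held 5 regions on chromosome 4 between 9440524 and 9449425. Nearest to ATHB2 were a region from 9445633 to 9446390 with 4.44 for PIF4 and 5.09 for PIF5, one with 3.54 and 2.38 and one with 2.71 and 2.38. The strongest of them had its summit 3058 bp from the gene and was therefore assigned to no gene. A pair of regions nearest to AT4G16770 had 4.17 and 4.13, and 4.27 and 4.47, also beyond 3 kb. The CRY2 peaks nearest to the 5 regions were 973 to 2620 bp from their edges.

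Another group on chromosome 2, between 18714380 and 18733563, held 5 regions. AHL22, an AT-hook gene whose product restrains hypocotyl growth, was nearest to one with 3.46 for PIF4 and 2.98 for PIF5, at 3082 bp, and to one with 2.62 and 2.25, at 45 bp. LBD18, a LOB-domain gene of lateral root formation, had 2.45 and 2.08.

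Assigned to the nearest protein-coding gene within 3 kb of the PIF4 summit, the regions fell on 1209 of 27444 genes, or 4.41%. Every gene within 1 kb of a region made 1782 genes, or 6.49%. The genes with most regions, 3 each, were RTFL21 and AT2G18980. RTFL21 encodes a small peptide related to ROTUNDIFOLIA4 and had PIF4 folds of 4.93, 3.94 and 4.16 and PIF5 folds of 3.83, 2.1 and 5.01. Of the 1209 genes, 259 (21.4%, interval 19.2 to 23.8) had a CRY2 peak elsewhere at the gene, close to the 22.1% of all genes, and 103 (8.52%) had a region of all 3 proteins besides, against 7.25% of all genes. At 950 genes no CRY2 peak was assigned. A gene named in this report without mention of a CRY2 peak may still have one elsewhere.

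The listed genes of shade avoidance had a region at 6 of 14 members, against 4.41% of all genes, but known PIF targets were put in this list on purpose. Regions of all 3 proteins were at 6 members, against 7.25% of all genes. Besides CKX5 and ST2A, XTH15, a xyloglucan enzyme, had 4.3 for PIF4 and 3.1 for PIF5, and PRE1, a helix-loop-helix protein that promotes cell elongation, had 4.14 and 2.18. PAR1, an atypical bHLH repressor of shade responses, had 4.10 and 3.58. ATHB2 was the sixth member, and PIL1 came within 1 kb of a region, as described.

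In the list of phytochromes and PIFs, 2 of 12 (16.7%, interval 4.70 to 44.8, against 4.41% of all genes) had a region: PIF3 with 3.83 for PIF4 and 2.20 for PIF5, and PHYD with 3.67 and 2.66. A region of all 3 proteins was at 3 members of that list, against 7.25% of all genes. In the list of blue light and photomorphogenesis, 2 of 13 (15.4%, interval 4.33 to 42.2) had a region without CRY2, PHOT1 and the ubiquitin ligase gene COP1. COP1 had 2 regions, the stronger with 3.25 and 3.01, and no CRY2 peak assigned. Clock genes had a region at 2 of 16 (12.5%), PRR9 (4.33 and 3.66) and LNK2 (4.18 and 2.68), and a region of all 3 proteins at 8 of 16, against 7.25% of all genes. Of 10 genes of photoperiodic flowering only CDF3 had a region of both PIFs without CRY2 (10%, interval 1.79 to 40.4), with 3.19 and 2.48. The intervals of the blue light, clock and flowering lists all hold the 4.41% of all genes.

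Some auxin genes of synthesis and of response had a region. Of 10 synthesis genes YUC8 and YUC9 had a region (20%, interval 5.67 to 51.0, against 4.41% of all genes). None had a region of all 3 proteins, against 7.25% of all genes. YUC9 (AT1G04180) had 4.53 for PIF4 and 3.85 for PIF5, 1120 bp from the gene, and the nearest CRY2 peak was 17849 bp away. Of the Aux/IAA genes, which encode repressors of auxin responses, 6 of 29 (20.7%, interval 9.85 to 38.4) had a region. The median PIF4 fold of these genes was 4.26 and the median PIF5 fold 3.13. IAA3 (listed as SHY2) had 4.71 and 3.57 at chromosome 1 from 1128896 to 1131077, 8 bp from the gene. IAA19 had 4.35 and 3.85, IAA14 had 4.34 and 2.68 and IAA7 had 4.17 and 3.70, the last 2 with summits inside the gene. Those 4 genes had no CRY2 peak assigned, whereas IAA9 had one of 2.87 besides its region.

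Auxin carriers and conjugating enzymes had a region at 5 of 17 members (29.4%, interval 13.3 to 53.1, against 4.41% of all genes). A region of all 3 proteins was at 9 members, against 7.25% of all genes. AUX1, the auxin influx carrier, had 4.25 for PIF4 and 3.15 for PIF5, with summits 2 bp apart and no CRY2 peak assigned. Among the GH3 enzymes, which join auxin to amino acids, GH3.3 had 3.78 and 2.44, GH3.6 (listed as DFL1) had 3.56 and 3.03, and GH3.1 had 3.34 and 2.63. GH3.3 and GH3.6 had CRY2 peaks of 3.1 and 2.99 elsewhere.

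SAUR genes, small auxin-induced genes that promote cell expansion, had a region at 8 of 79 members (10.1%, interval 5.22 to 18.7, against 4.41% of all genes). A region of all 3 proteins was at 3 members, against 7.25% of all genes. SAUR22 (AT5G18050) had 4.49 for PIF4 and 2.36 for PIF5, SAUR3 had 4.23 and 2.45, and SAUR24 had 4.15 and 2.54. The PIF5 folds of the 8 genes had a median of 2.31 and reached 2.80 at most. Neighbouring SAUR genes can share a region: SAUR23 lay within 1 kb of the region of SAUR22, and SAUR15 within 1 kb of that of SAUR14.

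**Figure D5:**
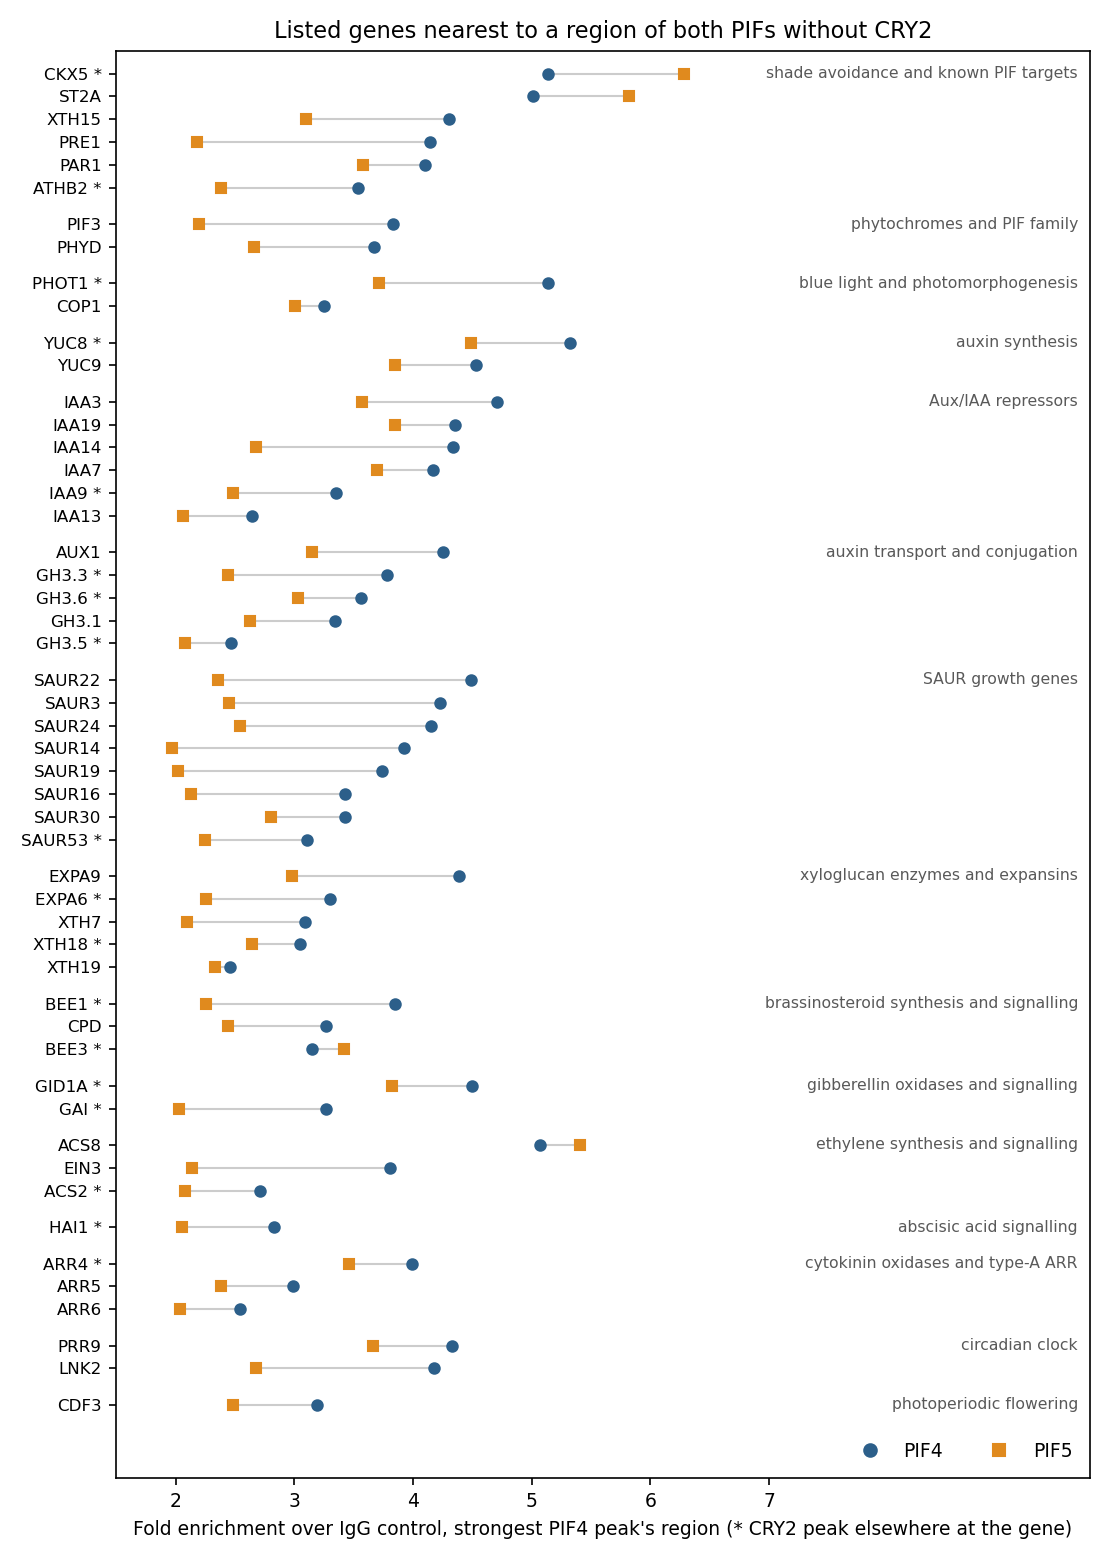
Fold enrichment over the IgG control of PIF4 (blue circles) and PIF5 (orange squares) at 51 genes with an assigned region. The genes come from 15 lists of light signalling, clock, flowering, hormones and cell wall, a gene of several lists being drawn once. Each gene is shown by the region with the strongest PIF4 peak among those assigned within 3 kb. The stronger region 3058 bp from ATHB2 is therefore left out. An asterisk marks a CRY2 peak elsewhere at the gene. In the drawn regions PIF5 exceeded PIF4 at CKX5, ST2A, BEE3 and ACS8, each protein being measured against its own control.

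Among cell wall genes, 6 of 62 (9.68%, interval 4.51 to 19.5, against 4.41% of all genes) had such a region, led by the expansin gene EXPA9 (4.39 for PIF4 and 2.98 for PIF5), XTH15, EXPA6 (3.3 and 2.26) and XTH7 (3.09 and 2.1). A CRY2 peak of 2.05 was assigned to EXPA6 elsewhere. Of 16 brassinosteroid genes 3 (18.8%, interval 6.59 to 43.0) had a region without CRY2 and 10 had a region of all 3 proteins, against 7.25% of all genes. The bHLH genes BEE1 and BEE3 had 3.85 and 2.26, and 3.15 and 3.42, with CRY2 peaks of 2.72 and 2.28 assigned to them elsewhere. CPD, a cytochrome P450 of brassinosteroid synthesis, had 3.27 and 2.44 with the nearest CRY2 peak 28610 bp away.

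Of 17 gibberellin genes 2 had a region (11.8%, interval 3.29 to 34.3, which holds the 4.41% of all genes). GID1A, a gibberellin receptor, had 4.50 for PIF4 and 3.82 for PIF5, and GAI, a DELLA repressor, had 3.27 and 2.03. CRY2 peaks of 2.64 and 2.47 were assigned to these genes elsewhere, the nearest being 280 and 674 bp from the regions. Of 17 ethylene genes, 3 (17.6%, interval 6.19 to 41.0) had a region: ACS8, EIN3, the master transcription factor of the response (3.81 and 2.14), and ACS2 (2.71 and 2.08). Cytokinin oxidases and type-A response regulators had a region at 4 of 17 (23.5%, interval 9.56 to 47.3): CKX5, ARR4 (3.99 and 3.46), ARR5 (2.99 and 2.38) and ARR6 (2.54 and 2.04). CRY2 peaks of 2.64, 2.36 and 2.41 were assigned to ACS2, CKX5 and ARR4 elsewhere. Of 15 genes of abscisic acid signalling only HAI1, a protein phosphatase, had a region (6.67%, interval 1.19 to 29.8), with 2.83 and 2.05, and a CRY2 peak of 2.47 elsewhere. Of 11 JAZ repressors of jasmonate responses none had a region (interval up to 25.9%). Both of these intervals hold the 4.41% of all genes.

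Among transcription factor families, WRKY genes, many of which act in defence, had a region at 11 of 71 members (15.5%, interval 8.88 to 25.7, against 4.41% of all genes) and a region of all 3 proteins at 18, against 7.25% of all genes. Their folds were low, with medians of 2.65 for PIF4 and 2.23 for PIF5. The strongest by their assigned regions were WRKY65 (4.04 and 2.65), WRKY6 (3.1 and 2.61), WRKY31 (3.1 and 2.16) and WRKY14 (2.85 and 2.23). A CRY2 peak of 2.08 was assigned to WRKY6 elsewhere. MYB genes had a region at 8 of 125 (6.40%, interval 3.28 to 12.1, which holds the 4.41% of all genes), led by MYB7 (4.60 and 4.24), MYB6 (3.73 and 2.42), MYB51 (3.72 and 2.89), a regulator of indole glucosinolates, and MYB3 (3.47 and 2.52). CRY2 peaks of 2.41 and 2.59 were assigned to MYB7 and MYB6 elsewhere.

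NAC genes had a region at 5 of 99 (5.05%, near the 4.41% of all genes), led by NAC089 (4.26 for PIF4 and 3.15 for PIF5), NAC075 (3.86 and 2.50), NAC049 (3.52 and 2.24) and NAC047 (3.12 and 2.1). A CRY2 peak of 2.18 lay 213 bp from the region of NAC047, and a CRY2 peak of 2.70 was assigned to that gene. ERF and DREB genes had a region at 4 of 33 (12.1%, interval 4.82 to 27.3): ERF98 (listed as TDR1, 4.11 and 2.83), ERF9 (3.37 and 2.16), ERF14 (3.35 and 2.08) and ERF11 (2.56 and 2.40).

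Light-harvesting and photosystem genes had a region at 2 of 36 (5.56%, near the 4.41% of all genes), LHCB6 (2.84 for PIF4 and 3.05 for PIF5) and LHCA4 (2.15 and 2.19). None of 12 genes of chlorophyll synthesis and greening, 30 B-box genes and 37 actin, tubulin and polyubiquitin genes had one. Their intervals reached 24.2%, 11.4% and 9.41% and all held the 4.41%, so these lists are not set apart from all genes. A single B-box gene lay within 1 kb of a region whose nearest gene was another. Regions of all 3 proteins were at 1, 8 and 9 genes of these lists, against 7.25% of all genes. In all, 81 of the 794 genes in the 24 lists had a region of both PIFs without CRY2, against 4.41% of all protein-coding genes. These are counts without a test, and the lists were not drawn at random.

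When genes of every kind were allowed, 1120 regions were nearest to a protein-coding gene and 102 to a long non-coding RNA. The summit lay inside that RNA gene in 41 cases. No share of each kind among all genes is given beside these counts, so they are a description only. MicroRNA genes were nearest at 3 regions: MIR779 (3.73 for PIF4 and 3.28 for PIF5), MIR172e (3.08 and 2.04), from the family that targets AP2-type genes, and MIR828 (2.74 and 2.26), whose family targets MYB genes. There were 25 regions more than 3 kb from a gene of any kind. The highest PIF4 fold among them was on chromosome 2 from 9520115 to 9522476, with 4.67 for PIF4 and 2.27 for PIF5. The highest PIF5 fold among them, 5.09, was at the region 3058 bp from ATHB2, which had 4.44 for PIF4.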

How the data were processed

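ChIP-seq peak lists of 3 proteins in 5-day-old seedlings were analysed. Per the submitters' processing notes, CASAVA 1.8.2, Bowtie2 2.1.0 and MACS2 2.0.10 were used with TAIR10, with no roles stated. The peak names show that the authors pooled replicates. The deposited lists give fold enrichment as a ratio, the -log10 p and a score made from it, and a constant and a summit offset as other values. The columns of per-sample values not used numbered 0. Coordinates are 1-based TAIR10 positions of peaks. Gene names came from a RefSeq table of TAIR10.1 with 27444 protein-coding genes in the nucleus. As a check that both builds share a frame, the genes were shifted by 2000 bp, which moved the share of summits inside genes from 27.5 to 62.2%. Regions were given the nearest gene within 3 kb of the strongest PIF4 summit. Intervals are 95% and cover counting error only. The planned shares with G-box and PBE-box elements were left out, since no genome sequence was used here. Named genes were the 20 best by mean rank, 3 on either side of the rule's limit, up to 4 per list by PIF4 fold, and those with most regions. Exceptions (PIL1, PAR1, ATHB2, IAA9, regions with unequal peaks, groups of regions, microRNA genes and neighbouring SAUR genes) were chosen after values were seen. Members and lists were chosen with earlier results of these data known. Of genes that matched a list by an ambiguous symbol, 6 were removed. The steps gave back all classes in simulated data with well separated regions and a single peak of each protein present. Regions close to each other or with several peaks of a protein were not simulated. Python 3.11.15, numpy 2.4.6, scipy 1.17.1, pandas 2.3.3 and matplotlib 3.10.9 were used.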

Additional observations from a re-analysis of the deposited data

How the results depend on the processing

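The number of regions stayed within 1.5 times the 1302 reported under 5 of 7 changes of the rule. It was 567 with the upper 50% of the PIF4 and PIF5 lists and 1991 with the upper 50% of the CRY2 list, both by construction. The number of assigned genes was then 528 and 1835. The upper 50% of the PIF lists also gave 24.7% of summits inside genes, a median summit distance of 22 bp and median folds of 3.76 for PIF4 and 2.78 for PIF5. When each list was cut to the length of the shortest, the folds were 3.41 and 2.47, and an overlap of at least 50% of both peaks gave 3.15 for PIF4. With summits within 100 bp their median distance was 24 bp. The share inside genes was 31.0% when taken at the midpoint of the region. The share with a CRY2 peak within 1 kb, measured to the whole CRY2 list, was 7.32% after excluding peaks within 500 bp, 44.0% with the upper 50% of the CRY2 list and 43.0% with lists of equal size. At 500 bp in place of 1 kb it was 7.68%, and at 3 kb 37.5%. All other values computed under these changes stayed within their interval or 1.5 times. Settings for sequence elements were not run. No paired analysis was possible because each list pools its replicates. Unknown depth and a CRY2 list with its own protocol limit what the lack of a CRY2 peak means.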
